A study of Drosophila melanogaster with 72 samples.

Results

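period (per) and timeless (tim) encode the 2 repressor proteins of the Drosophila circadian clock. Both were taken from a table of FPKM values (fragments per kilobase of transcript, scaled to library depth) for 29260 RefSeq transcripts of 15240 genes. Each gene was found by its symbol, and its transcript of highest mean FPKM stood for it. The 2 genes have 11 of the listed transcripts, 2 for per and 9 for tim. The libraries came from Oregon R male flies, whose RNA was polyA-selected and sequenced without strand information. Flies on time-restricted feeding (TRF) were moved in turn between food and a medium of agar and water, and flies fed ad libitum (ALF) kept food at all hours. Heart was sampled at week 5 of age, and head and periphery (the body without its head) at weeks 3, 5 and 7. Zeitgeber time (ZT) counts the hours since lights came on. All groups were sampled at ZT00, ZT06, ZT12 and ZT18, and the week 5 heads and peripheries at ZT03, ZT09, ZT15 and ZT21 too. A group had a single library at a given ZT, so TRF and ALF libraries of the same age and ZT were treated as pairs. The number of flies in a library was not given in the sources used here, and p-values measure the spread between these libraries.

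The transcription factors CLK and CYC switch on per and tim, and the PER and TIM proteins accumulate with a delay, enter the nucleus together and block CLK and CYC until they are degraded. Light sets the phase of the loop because the photoreceptor protein CRY, once lit, leads to the degradation of TIM. In fly heads the eyes hold many clock cells, and clocks also run in fat body, gut and other peripheral organs, where feeding time is known to shift them. In bulk tissue, fewer cells that express a gene and less of its RNA per cell cannot be told apart.

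The annotation of the table (dm3) places per on chromosome X from 2579613 to 2586813 on the plus strand. Its lead transcript, NM_080317, is 4517 bases long and the other, NM_001272265, is 4430 bases. It places tim on chromosome 2L from 3493986 to 3508119 on the minus strand, with the lead transcript NM_001144308 of 5001 bases. Of the 9 tim transcripts, 7 run to the distal 3′ end at 3493986, and 2 of 3549 and 3661 bases stop at 3501048, 7062 bases short of it.

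In 12 of the 72 libraries the photoreceptor gene ninaE, which encodes the main rhodopsin of the fly eye, contradicted the tissue label, and these were left out. Libraries labelled head were kept at 1000 FPKM of ninaE or more and those labelled periphery at 1000 FPKM or less, which left 26 head, 26 periphery and 8 heart libraries. At week 5, 9 photoreceptor genes summed to between 40.3 and 160.5 FPKM in heart, between 23840 and 43004 FPKM in head and between 4.54 and 6.41 FPKM in periphery. They include ninaE, which set the libraries kept, so for head and periphery the sum is no separate check. The 4 heart genes Hand, tin, tup and H15 summed to between 752 and 1817 FPKM in heart, and to at most 8.11 FPKM in head and 18.0 FPKM in periphery. Depth, recovered from the steps between low FPKM values, was 0.210 to 23.7 M reads (1e6 reads) per library. The library of the lowest depth, head week 3 TRF ZT12, held 8 reads of per and 50 reads of tim. The head week 5 ALF ZT15 library had 2.10 M reads and 9856 FPKM of ninaE, the least among the 26 head libraries kept.

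In the periphery at week 5, both genes were higher at ZT18 and ZT00 than at ZT06 and ZT09 under either feeding, and in TRF flies they were high at ZT03 too (131 FPKM of tim and 18.2 FPKM of per). tim had a lowest level of 8.24 FPKM at ZT09, a median of 83.5 FPKM and a highest level of 142.0 FPKM at ZT18 in TRF flies, against 11.9 FPKM at ZT06, 71.2 FPKM and 174 FPKM at ZT00 in ALF flies. per had a lowest level of 2.60 FPKM at ZT09, a median of 10.7 FPKM and a highest level of 22.9 FPKM at ZT18 in TRF flies, against 3.32 FPKM at ZT06, 8.45 FPKM and 26.9 FPKM at ZT00 in ALF flies. The lowest and highest level of tim lay 17.2-fold apart in TRF and 14.6-fold apart in ALF flies, and those of per 8.84-fold apart in TRF and 8.09-fold apart in ALF flies. The trough came at ZT09 in TRF and at ZT06 in ALF flies for both genes, and the ranges of the feedings overlapped throughout.

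In the head at week 5, per and tim were high at ZT18 and ZT21 and lower at ZT12 under either feeding. tim had a lowest level of 10.2 FPKM at ZT15, a median of 157 FPKM and a highest level of 298 FPKM at ZT21 over 6 TRF libraries, against 22.7 FPKM at ZT12, 62.8 FPKM and 314 FPKM at ZT18 over 7 ALF libraries. per had a lowest level of 11.1 FPKM at ZT15, a median of 51.1 FPKM and a highest level of 115.2 FPKM at ZT21 in TRF, against 19.1 FPKM at ZT12, 22.4 FPKM and 114 FPKM at ZT18 in ALF. The TRF libraries at ZT06 and ZT09 and the ALF library at ZT06 were among those left out, so that part of the day is thinly covered. The lowest and the highest library each fell 3 h later in TRF than in ALF heads, at the spacing of the sampling. The ALF trough was not resolved, with per at 19.5 FPKM at ZT03 and tim at 24.4 FPKM at ZT09. The 95% Poisson limits of these values, which cover counting error only, overlapped with those at ZT12.

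In the heart, tim measured 42.7, 18.6, 76.2 and 162 FPKM at ZT00, ZT06, ZT12 and ZT18 in TRF flies, against 24.4, 15.9, 92.5 and 155 FPKM in ALF flies. per measured 4.10, 2.62, 8.18 and 12.3 FPKM at the same ZTs in TRF flies, against 3.20, 2.99, 7.75 and 11.2 FPKM in ALF flies. Both genes were lowest at ZT06 and highest at ZT18 under both feedings, and were already well above their ZT00 level at ZT12.

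**Figure D1:**
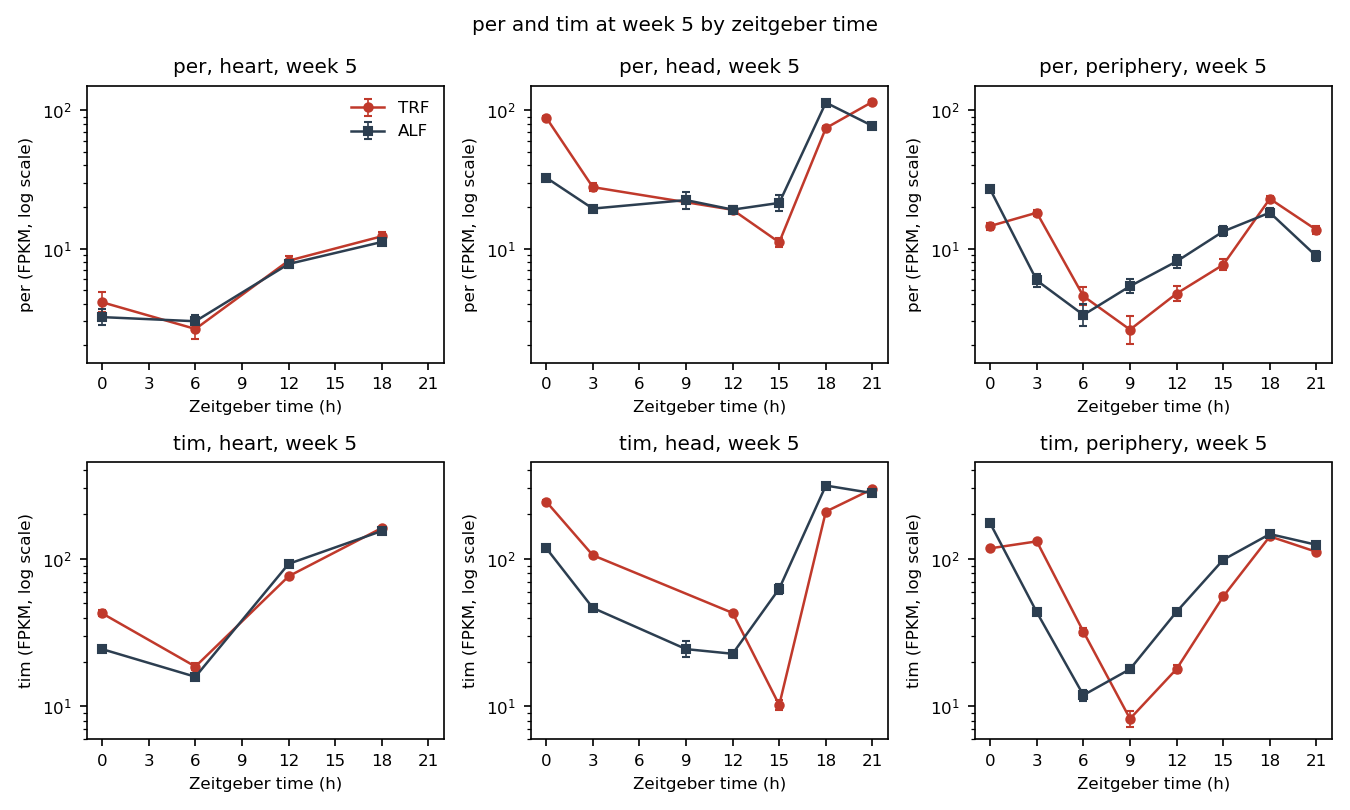
FPKM (log scale) of per (upper panels) and tim (lower panels) against ZT at week 5 in heart, head and periphery, with 1 library per point and TRF and ALF libraries joined by lines; bars are exact 95% Poisson limits, which cover counting error only, and lines in head cross the ZTs left out. tim in heart reached 76.2 FPKM in TRF and 92.5 FPKM in ALF flies at ZT12, while in periphery it was at 17.9 FPKM in TRF and 43.8 FPKM in ALF flies at that time.

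A 24 h cosine was fitted to every gene, and the amplitude below is the distance from the fitted mean to the fitted peak on the log2(FPKM + 1) scale. In the periphery tim had an amplitude of 1.79 ± 0.28 (SE, 8 ZTs) with a peak at ZT 21.9 ± 0.6 h in TRF flies, against 1.75 ± 0.28 with a peak at 19.7 ± 0.62 h in ALF flies. Neither passed after Benjamini-Hochberg adjustment (adjusted p = 0.138 in TRF and 0.174 in ALF), but without ZT06 tim passed in TRF (1.84, adjusted p = 0.0299, range over the alternatives 0.0299 to 0.526). For per the amplitude was 1.15 ± 0.27 in TRF, against 0.90 ± 0.27 in ALF, with adjusted p = 0.159 in TRF and 0.450 in ALF. The share of the 11992 genes called was 0% for each feeding, although 2412 genes in TRF and 1182 in ALF were under an unadjusted p of 0.05, and limma-voom on the recovered reads also called 0.

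Over both feedings together, a fit added after the data were seen, tim passed in the periphery with an amplitude of 1.70 ± 0.22, a peak at 20.8 ± 0.51 h and adjusted p = 0.0150 (n = 16 libraries). There 0.242% of genes were called (29 genes), and across the alternatives the adjusted p of tim ranged between 0.0109 and 0.20. It did not pass without ZT09 (adjusted p = 0.20), ZT12 (0.0602) or ZT18 (0.0834). per did not pass (0.98 ± 0.20, peak 20.6 ± 0.76 h, adjusted p = 0.0679) except without ZT21 (1.28, adjusted p = 0.0330, range over the alternatives 0.0330 to 0.206).

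Head rhythms did not pass with all ZTs either. tim had an amplitude of 1.97 ± 0.54 and a peak at 22.7 ± 1.1 h in TRF (adjusted p = 1), against 2.0 ± 0.48 and 20.3 ± 0.86 h in ALF (adjusted p = 0.473). The ALF value passed without ZT15 (2.06, adjusted p = 0.0450, range over the alternatives 0.0450 to 0.762). per had an amplitude of 1.70 ± 0.48 and a peak at 21.7 ± 0.91 h in TRF (adjusted p = 1), against 1.16 ± 0.39 and 19.6 ± 1.2 h in ALF (adjusted p = 0.539). Of 9886 genes, 0% were called in TRF, in ALF and over both feedings, and limma-voom called 0 in each. At an unadjusted p below 0.05 there were 217 genes in TRF, 881 in ALF and 668 over both feedings. Over both feedings tim had an amplitude of 1.92 ± 0.39 (adjusted p = 0.668), which passed only without ZT15 (adjusted p = 0.0322, range over the alternatives 0.0322 to 0.947).

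In the heart, where the 8 libraries of both feedings were fitted together, tim had an amplitude of 1.70 ± 0.12 with a peak at 16.5 ± 0.28 h (adjusted p = 0.0826), and per one of 0.99 ± 0.08 with a peak at 16.1 ± 0.32 h (adjusted p = 0.131). The SEs were the smallest of the 3 tissues, yet 0% of 9726 genes were called (1009 under an unadjusted p of 0.05). On the recovered reads limma-voom called 3 genes, and per and tim both passed there (adjusted p = 0.0333 each).

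**Figure D2:**
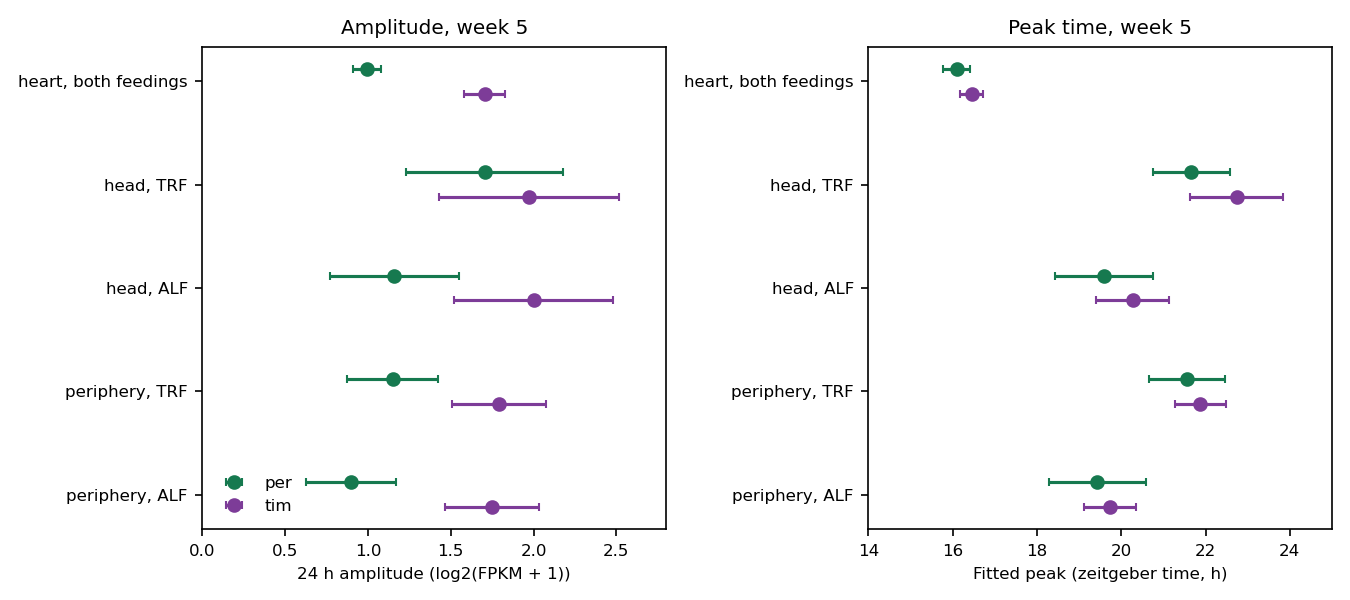
Amplitude on the log2(FPKM + 1) scale (left) and fitted peak in hours of ZT (right) of per and tim at week 5, as estimate ± SE for heart over both feedings and for head and periphery by feeding. Peaks lie at 16.1 and 16.5 h in heart, between 21.6 and 22.7 h in TRF and between 19.4 and 20.3 h in ALF.

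The fitted peak in heart lay earlier than in the other tissues for both genes. For tim the heart minus periphery difference was -4.37 ± 0.58 h (16.5 h in heart against 20.8 h in periphery) and the heart minus head difference -5.02 ± 0.77 h (16.5 h in heart against 21.5 h in head). For per they were -4.54 ± 0.82 h and -4.79 ± 0.87 h. The test of the whole rhythm difference, added after the data were seen, passed for tim between heart and periphery (amplitude of the difference 1.84 ± 0.36, adjusted p = 0.0187), where 6.27% of 11868 genes were called. For per it did not pass (1.11 ± 0.31, adjusted p = 0.0730) except without ZT21 (1.32, adjusted p = 0.0267, range over the alternatives 0.0267 to 0.458). Between heart and head it passed for neither gene, at 2.22 ± 0.48 for tim (adjusted p = 0.369) and 1.37 ± 0.38 for per (adjusted p = 0.481), and 0% of 10343 genes were called (707 under an unadjusted p of 0.05). Without ZT15 the tim value was 1.81 and passed (adjusted p = 0.0480, range over the alternatives 0.0480 to 1). Heart had 4 ZTs and periphery 8, and with the same 4 ZTs from both tissues the tim difference from periphery kept its size at 1.84 but did not pass (adjusted p = 0.280). Nor did it pass without ZT00 (adjusted p = 0.159) or ZT12 (adjusted p = 0.0795), and over the 18 alternatives its adjusted p ran between 0.00671 and 0.280.

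The tim libraries behind the fit of heart and periphery differed most at ZT12 and ZT00, times picked after their values were seen. At ZT12, tim was at 76.2 FPKM in heart against 17.9 FPKM in periphery of TRF flies, and at 92.5 FPKM in heart against 43.8 FPKM in periphery of ALF flies. At ZT00 it was at 42.7 FPKM in heart against 118 FPKM in periphery of TRF flies, and at 24.4 FPKM in heart against 174 FPKM in periphery of ALF flies. For tim, heart was thus the higher tissue at ZT12 and the lower one at ZT00 under both feedings. At ZT06 tim was at 18.6 FPKM in heart against 32.1 FPKM in periphery of TRF flies, but at 15.9 against 11.9 FPKM in ALF flies. At ZT18 the tissues were close, at 162 FPKM in heart against 142 FPKM in periphery of TRF and 155 against 147 FPKM of ALF flies. For per, heart was the lower tissue at ZT00 under both. At ZT12 per was at 8.18 FPKM in heart against 4.74 FPKM in periphery of TRF flies, but at 7.75 against 8.09 FPKM in ALF flies. Between heart and head 0% of 10343 genes passed the rhythm test (707 under an unadjusted p of 0.05, 1 by limma-voom), with adjusted p = 0.369 for tim and 0.482 for per. Between head and periphery 0.0323% of 12373 genes were called, and neither gene passed (adjusted p = 0.852 for tim and 0.857 for per).

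TRF was compared with ALF flies for the timing of the rhythm and for its mean level. The fitted peaks of both genes were later in TRF than in ALF flies in head and periphery at week 5. The shift was 2.12 ± 0.87 h for tim and 2.13 ± 1.47 h for per in periphery, and 2.48 ± 1.40 h for tim and 2.07 ± 1.47 h for per in head. The test of the rhythm difference passed for neither gene, with adjusted p = 0.969 for both in periphery and 0.886 for both in head, and 0% of genes were called in either tissue (590 of 11992 in periphery and 247 of 9886 in head under an unadjusted p of 0.05). limma-voom called 0 in both.

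Of the 6 ZTs with head libraries of both feedings, ZT03 and ZT15 were those at which both genes differed the same way in head and periphery. At ZT03 tim was at 106 FPKM in TRF against 46.5 FPKM in ALF heads, and at 131 FPKM in TRF against 43.5 FPKM in ALF periphery. At ZT15 it was at 10.2 FPKM in TRF against 62.8 FPKM in ALF heads, and at 55.6 FPKM in TRF against 98.6 FPKM in ALF periphery. per was at 27.9 FPKM in TRF against 19.5 FPKM in ALF heads and 18.2 FPKM in TRF against 5.89 FPKM in ALF periphery at ZT03. At ZT15 per was at 11.1 FPKM in TRF against 21.4 FPKM in ALF heads and at 7.65 FPKM in TRF against 13.3 FPKM in ALF periphery. TRF flies were higher at ZT03 and lower at ZT15 for both genes in both tissues, over 4 pairs of single libraries chosen after their values were seen. At ZT00 the tissues went opposite ways, with tim at 245 FPKM in TRF against 118 FPKM in ALF heads and at 118 FPKM in TRF against 174 FPKM in ALF periphery. per was then at 88.7 FPKM in TRF against 32.6 FPKM in ALF heads and at 14.6 FPKM in TRF against 26.9 FPKM in ALF periphery. At ZT18 per was at 74.4 FPKM in TRF against 114 FPKM in ALF heads, but at 22.9 FPKM in TRF against 18.2 FPKM in ALF periphery. The ALF head library at ZT15 is the one with the low ninaE level. Without it the fitted head peak was later in TRF than in ALF flies by 2.83 ± 1.47 h for tim and 3.08 ± 1.19 h for per, and the rhythm difference passed for neither (adjusted p = 0.674 for tim and 0.618 for per).

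Averaged over the day, no difference of per or tim between feedings passed. On the log2(FPKM + 1) scale the TRF minus ALF difference at week 5 was 0.08 ± 0.11 for per and 0.20 ± 0.19 for tim in heart (4 pairs). It was 0.16 ± 0.38 for per and 0.02 ± 0.50 for tim in head (6 pairs), and -0.04 ± 0.27 for per and -0.12 ± 0.46 for tim in periphery (8 pairs). At week 3 it was -0.22 ± 0.46 for per and -0.08 ± 0.61 for tim in head (4 pairs), and -0.31 ± 0.54 for per and -0.15 ± 0.93 for tim in periphery (2 pairs). At week 7, with 2 pairs in each tissue, it was 0.02 ± 0.65 for per and 0.29 ± 0.86 for tim in head, and -0.69 ± 0.54 for per and -0.35 ± 0.93 for tim in periphery. The lowest adjusted p among these 14 values was 0.541, for per in periphery at week 7. There 0.167% of 12001 genes were called, and in each of the other comparisons 0%. Under an unadjusted p of 0.05 were 635 of 9726 genes in heart, 750, 140 and 310 of 9879 in head and 744 and 629 of 12001 in periphery at weeks 3 and 5. limma-voom also called 0 in those comparisons.

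At weeks 3 and 7 the periphery showed opposite courses of tim between ZT12 and ZT18 under the 2 feedings. At week 7 tim was at 52.0 FPKM at ZT12 and 21.8 FPKM at ZT18 in TRF flies, against 19.8 FPKM and 93.5 FPKM in ALF flies. At week 3 it was at 63.8 FPKM at ZT12 and 21.7 FPKM at ZT18 in TRF flies, against 18.4 FPKM and 92.5 FPKM in ALF flies. The TRF libraries were high at ZT12 and low at ZT18 at both ages, and the ALF libraries the reverse. The ZT labels of these libraries were taken as given, and whether they are right was not tested. per was at 5.59 FPKM at ZT12 and 6.63 FPKM at ZT18 in TRF against 6.03 and 17.6 FPKM in ALF flies at week 7. At week 3 it was at 5.09 and 4.86 FPKM in TRF against 3.37 and 11.6 FPKM in ALF flies.

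The change of tim between ZT12 and ZT18, added after the data were seen, was -1.36 ± 0.13 in TRF (adjusted p = 0.588) and 2.23 ± 0.13 in ALF flies (adjusted p = 0.202), and the difference between feedings was -3.59 ± 0.19 (adjusted p = 0.108). For per it was 0.08 ± 0.13 in TRF and 1.47 ± 0.13 in ALF flies, with a difference of -1.39 ± 0.18 (adjusted p = 0.712). Each comparison rested on 2 libraries per time and feeding, and 0% of 11968 genes were called in the 3 comparisons, where an unadjusted p was below 0.05 for 549 genes in TRF, 419 in ALF and 464 for the difference. limma-voom called 0, 2 and 1 genes, and its single call for the difference was tim (-3.69, adjusted p = 0.0156). For vri, which CLK and CYC also switch on, the change was -0.05 ± 0.14 in TRF (adjusted p = 0.961) and 1.70 ± 0.14 in ALF flies (adjusted p = 0.282).

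In heads at week 3 the lowest and highest tim lay 1.71-fold apart in TRF and 6.61-fold apart in ALF flies. There tim was at 52.6, 30.8, 47.5 and 33.3 FPKM at ZT00, ZT06, ZT12 and ZT18 in TRF, against 27.1, 33.6, 22.8 and 151 FPKM in ALF heads. per was at 32.2, 26.1, 8.42 and 11.4 FPKM in TRF, against 18.0, 14.2, 11.6 and 51.8 FPKM in ALF heads. The ALF library at ZT18 stood above the others for both genes, and the TRF library at ZT18 was not raised. At week 7 tim was at 156 FPKM at ZT00 and 224 FPKM at ZT06 in TRF heads, against 267, 86.6 and 162 FPKM at ZT00, ZT06 and ZT18 in ALF heads. At the same times per was at 41.6 and 60.7 FPKM in TRF heads, against 67.8, 36.4 and 69.1 FPKM in ALF heads.

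Fitted over both ages, the amplitude of tim was 0.06 ± 0.48 in TRF (adjusted p = 1) and 0.85 ± 0.43 in ALF heads (adjusted p = 1). That of per was 1.04 ± 0.43 in TRF, with a peak at 2.87 ± 1.28 h (adjusted p = 0.374), and 0.75 ± 0.32 in ALF, with a peak at 19.7 ± 1.8 h (adjusted p = 0.898). The share of 9879 genes called was 1.96% in TRF and 0.0405% in ALF, and 0.111% for the difference between feedings, which neither gene passed (adjusted p = 0.390 for per and 0.869 for tim). In ALF periphery over both ages tim had an amplitude of 1.94 ± 0.45 and a peak at 23.4 ± 0.53 h (adjusted p = 0.0556) and per one of 1.15 ± 0.41 (adjusted p = 0.197), with 2.64% of 12001 genes called. Only ZT06, ZT12 and ZT18 were left there, so the cosine has as many free values as there are times, and the tim peak lies outside them. With ZT12 and ZT18 alone left in TRF periphery, no 24 h fit was possible there.

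**Figure D3:**
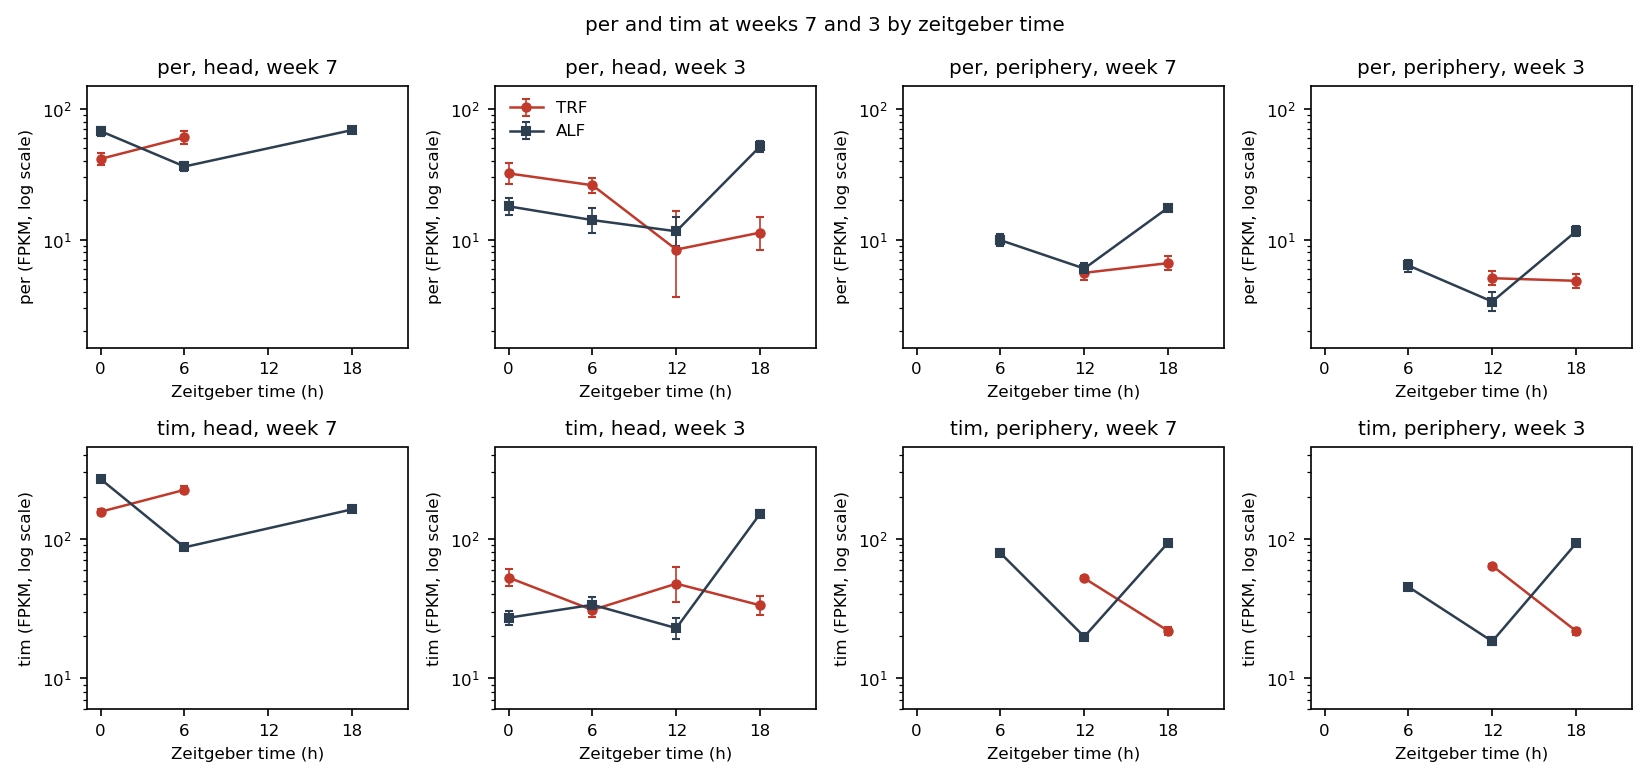
FPKM (log scale) of per (upper panels) and tim (lower panels) against ZT at weeks 7 and 3 in head and periphery, with 1 library per point, TRF and ALF libraries joined by lines, and exact 95% Poisson limits for counting error. In periphery the tim lines of TRF and ALF cross between ZT12 and ZT18 at both ages.

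Older flies had higher per in each pair of libraries, but no test passed. Week 7 exceeded week 3 in 2 of 2 pairs of TRF heads (0.77 ± 0.37, adjusted p = 0.705) and 3 of 3 pairs of ALF heads (1.19 ± 0.30, adjusted p = 1). In periphery it did so in 2 of 2 TRF pairs (0.25 ± 0.14, adjusted p = 0.428) and 3 of 3 ALF pairs (0.61 ± 0.11, adjusted p = 0.150). In ALF periphery per was at 9.94, 6.03 and 17.6 FPKM at ZT06, ZT12 and ZT18 at week 7, against 6.36, 3.37 and 11.6 FPKM at week 3. In ALF heads it was at 67.8, 36.4 and 69.1 FPKM at ZT00, ZT06 and ZT18 at week 7, against 18.0, 14.2 and 51.8 FPKM at week 3, so that the ranges overlapped in both tissues. The labels name no batch, and age and batch cannot be told apart.

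tim was higher at week 7 in every head pair, by 2.18 ± 0.68 in TRF and 1.57 ± 0.55 in ALF (adjusted p = 0.703 in TRF and 1 in ALF). In periphery it differed by -0.14 ± 0.22 in TRF and 0.30 ± 0.18 in ALF (adjusted p = 0.762 in TRF and 0.482 in ALF). Called were 0% of 9825 genes in head for each feeding (672 in TRF and 312 in ALF under an unadjusted p of 0.05, and 0 and 2 by limma-voom). In periphery 0.0167% of 11985 genes were called in TRF and 0% in ALF (1722 under an unadjusted p of 0.05, 0 by limma-voom). The 9 photoreceptor genes summed to between 36913 and 43089 FPKM in the week 7 heads and between 29165 and 47037 FPKM in the week 3 heads.

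Across tissues per was highest in head, and no tissue difference of tim passed. At week 5 per had a lowest level of 2.62, a median of 5.92 and a highest level of 12.3 FPKM in 8 heart libraries. It had 11.1, 27.9 and 115.2 FPKM in 13 head libraries, and 2.60, 8.45 and 26.9 FPKM in 16 periphery libraries. The heart libraries lay almost wholly below the head libraries and overlapped with periphery. tim had a lowest level of 15.9, a median of 59.4 and a highest level of 162 FPKM in heart. It had 10.2, 106 and 314 FPKM in head, and 8.24, 77.1 and 174 FPKM in periphery, and all 3 ranges overlapped.

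In pairs of the same feeding and ZT, the heart minus head difference of per was -2.54 ± 0.39 on the log2(FPKM + 1) scale (lower in heart in 6 of 6 pairs, adjusted p = 0.000505). Here 77.3% of 10343 genes were called, and the median over all genes was itself -0.46, which leaves a difference of -2.08 relative to it. After rescaling by the median of ratios it was -2.0 (adjusted p = 0.00224), and over the 19 alternatives the adjusted p ran between 1.17e-05 and 0.00884. per was higher in head than in periphery by 1.63 ± 0.24 (higher in 13 of 13 pairs, adjusted p = 1.25e-05), with 78.4% of 12373 genes called and an all-gene median of -0.09. Between heart and periphery it differed by -0.74 ± 0.32 (lower in 7 of 8 pairs, adjusted p = 0.0535), with 82.2% of 11868 genes called and an all-gene median of -0.66. That value was -1.10 and passed without ZT12 (adjusted p = 0.0146), was -0.27 without ZT00 and -0.14 after rescaling by the median of ratios, and its adjusted p ran between 0.0146 and 0.706 over the 18 alternatives.

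tim differed by -0.55 ± 0.57 between heart and head (adjusted p = 0.402), -0.16 ± 0.46 between heart and periphery (adjusted p = 0.758) and 0.17 ± 0.27 between head and periphery (adjusted p = 0.576). The first 2 values had a positive sign after rescaling by the median of ratios (0.02 and 0.53). Without ZT12 the heart minus head difference of tim was -1.53 (adjusted p = 0.0138), and without ZT00 it was 0.35. Both per and the sum of the 9 photoreceptor genes given above were highest in head, and that sum includes ninaE, by which libraries were kept. The part of photoreceptor cells in the per difference was not tested.

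The ratio of tim to per within a library does not depend on scaling, and it differed between tissues. At week 5 it was 9.84 ± 3.05 in heart (SD, n = 8), 2.52 ± 0.95 in head (n = 13) and 6.67 ± 2.67 in periphery (n = 16), each as a ratio of FPKM. The lowest heart ratio, 5.31, lay above the highest head ratio, 3.8, of that age. Over all ages 1 kept head library reached 5.65, the week 3 TRF library at ZT12 with 8 reads of per. Among week 5 periphery libraries the ratio ran between 3.17 and 14.1, and it overlapped with both other tissues.

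The ratio was lower in head than in periphery in 13 of 13 pairs, at -1.55 on the log2 scale (exact sign-flip permutation test, two-sided, p = 0.000244, adjusted p = 0.00293 over 12 tests). It was higher in heart than in periphery in 8 of 8 pairs, by 0.68 (exact permutation p = 0.00781, adjusted p = 0.0469). It was higher in heart than in head in 6 of 6 pairs, by 2.15 (exact permutation p = 0.0312, adjusted p = 0.0938). Each of these 3 p-values is the smallest that its number of pairs allows, and the ratio was chosen after the data were seen. Beside the p-values of the other tests, a comparison of 6 pairs could not reach the threshold after adjustment over 12 tests. With 1 FPKM added to both genes the heart and periphery difference was 0.59 and did not pass (adjusted p = 0.117). With any single heart ZT left out, 6 pairs remain and it was 0.51 to 0.82 (adjusted p between 0.075 and 0.188). As 6 pairs could not pass beside the p-values of the other tests, these adjusted p-values do not test whether the difference holds. No difference of the ratio between TRF and ALF passed: heart (0.11, 4 pairs, which allow no p below 0.125), head (-0.16) or periphery (-0.07), each with adjusted p = 0.900.

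The same ratio was read in the 12 libraries left out. The 6 labelled head had 0.081 to 0.923 FPKM of ninaE and a tim to per ratio of 4.42 to 7.66. Among kept heads of all ages only the week 3 TRF library at ZT12, with 8 reads of per, reached into that range (5.65). The next highest kept head had 3.94 (week 7 ALF ZT00). The 6 ratios lay within the range of the kept periphery libraries, 3.17 to 14.1. The 6 labelled periphery had 14968 to 22940 FPKM of ninaE and a ratio of 1.29 to 2.36. The ratios of these 6 lie wholly below the 26 periphery libraries kept, whose lowest ratio was 3.17, and within the range of the kept heads (0.92 to 5.65). Their per levels ran between 20.3 and 81.7 FPKM, and 5 of the 6 lay above the 26.9 FPKM that was the highest among the periphery libraries kept.

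**Figure D4:**
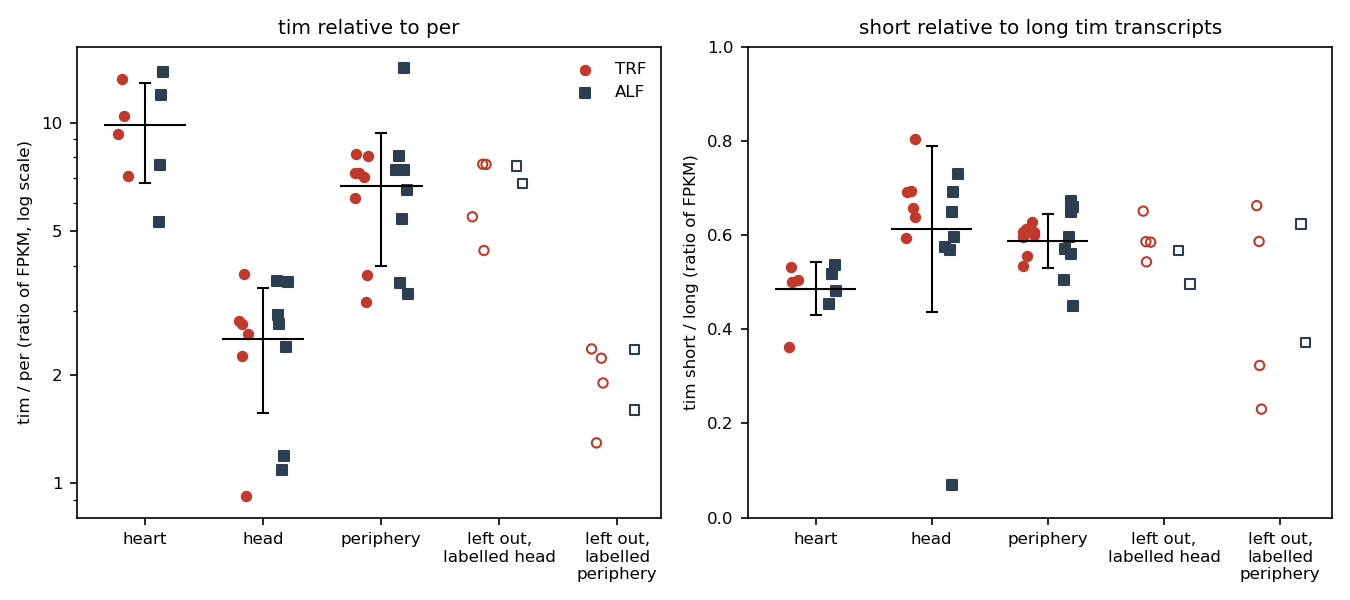
Ratio of tim to per FPKM (left, log scale) and of the short to the long tim transcript (right) in each library, TRF left of ALF, at week 5 in heart, head and periphery (filled, with mean ± SD) and in the 12 libraries left out (open, all ages). Head ratios of tim to per lie below all heart ratios, and 1 ALF head library stands at 0.068 in the short to long ratio.

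Among transcripts, the levels of the 7 long forms of tim tracked each other. Their correlation with the lead transcript over the 60 libraries was at least 0.9999 (Pearson's r), and they share most of their exons and thus their reads. NM_001144309, the more abundant of the 2 short forms, averaged 35.8 FPKM in heart, 92.9 FPKM in head and 47.7 FPKM in periphery at week 5. The lead long form averaged 73.3 FPKM in heart, 137 FPKM in head and 79.9 FPKM in periphery. Reads of the short form over shared exons can also be counted for the long forms, so the ratio is not an isoform share. Whether the short form has exon sequence of its own was not checked.

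That ratio was 0.487 ± 0.056 in heart (SD, n = 8), 0.612 ± 0.176 in head (n = 13) and 0.588 ± 0.058 in periphery (n = 16). It was lower in heart than in head in 6 of 6 pairs (exact permutation p = 0.0312, adjusted p = 0.0938) and lower in heart than in periphery in 7 of 8 pairs (exact permutation p = 0.0547, adjusted p = 0.125). Neither passed over the 12 tests, where 6 pairs could not reach the threshold beside the other p-values, and no comparison of TRF with ALF did. The head week 5 ALF ZT15 library, whose ninaE level was the lowest of the heads kept, had a ratio of 0.0684, against 0.570 to 0.804 in the other 12 head libraries. It had 32 reads counted for the short form, against 659 for the lead long form. Over the stretch that only 1 per transcript keeps (next paragraph), its read density relative to the shared exons was 4.95 (18 reads). In the other 12 head libraries that density was at most 1.54. Clk had 0 reads in this library. Whether uneven coverage along transcripts enters the short to long ratio was not tested. Without this library the mean log2 difference of the ratio between head and periphery was 0.14, against -0.11 with it.

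The 2 per transcripts differ by 87 bases in length, and the Ensembl annotation (of another build) shows 1 intron of 86 bases after the last coding base, spliced out in 1 form and kept in the other. Their levels correlated at 0.9999. Read density over the kept stretch, relative to the shared exons and summed over week 5 libraries, was 1.68 in heart (139 reads), 1.21 in head (824 reads) and 0.935 in periphery (209 reads). The 2 forms share all but this stretch, so their levels do not give the share of each. With even coverage a stretch kept in 1 form could not exceed 1, so the densities do not measure how often it was kept. The source of the values above 1 was not tested. No test of the densities was made.

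The genes whose week 5 courses were most like those of per and tim included other targets of CLK and CYC. In 13 head libraries, the 5 genes most like per were Pdp1 (Pearson's r = 0.983), vri (0.965), Slob (0.954), tim (0.939) and Ubpy (0.931), among 9885 other genes. vri and Pdp1 encode the repressor and the activator of the second clock loop, which acts on Clk, and Slob binds the potassium channel Slowpoke. The 5 most like tim in head were CG31954 (0.946), per (0.939), Myo28B1 (0.936), Pdp1 (0.926) and Slob (0.910). At the other end, cry had the lowest r with per of all 9885 genes (-0.925).

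In 16 periphery libraries per was most like vri (0.961), CG31954 (0.942), tim (0.939), CG42237 (0.930) and CG3097 (0.906). The list for tim was per (0.939), CG31954 (0.937), vri (0.916), CG3097 (0.907) and CG42237 (0.893). CG31954 is listed on chromosome 2L from 3509058 to 3510102 on the minus strand (dm3), 938 bases upstream of the tim start. It had at most 4.50 FPKM in head and 2.96 FPKM in periphery. Reads past the 3′ end of CG31954 would run towards tim and could not be assigned between them. Those past the distal 3′ end of tim would run away from CG31954. The source of its tim-like course was not tested. The spans of Slob and Myo28B1, on opposite strands, share 9032 bases of 2L, so their reads cannot be told apart in unstranded libraries. These correlations describe libraries that share feeding and ZT and carry no test.

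Of a list of 20 clock genes that includes per and tim, 1 passed in a rhythm fit at week 5, namely tim in periphery over both feedings. Of all genes 0.242% were called in that fit and 0% in the other rhythm fits of week 5. In periphery over both feedings the list's median amplitude was 0.14, beside 0.12 over all genes. In the comparison of rhythms between heart and periphery 3 of the 20 passed, beside 6.27% of all genes, namely tim, Clk (0.76 ± 0.15, adjusted p = 0.0198) and nmo (0.43 ± 0.07, adjusted p = 0.00709), the last of which encodes a kinase that acts on PER. None of the 20 passed in any comparison of TRF with ALF or of week 7 with week 3, where at most 0.167% of all genes were called.

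Levels of the list were compared between tissues, where most genes of any kind passed. Between heart and head 14 of 20 passed, all lower in heart, with a list median of -0.65 beside -0.46 over all genes. Of all genes 77.3% passed there, 5675 lower and 2323 higher in heart. Between heart and periphery 10 were lower and 1 higher in heart, with a median of -0.32 beside -0.66. Of all genes 82.2% passed there, 7790 lower and 1967 higher in heart. Between head and periphery 4 were higher and 3 lower in head, with a median of 0.13 beside -0.09. Of all genes 78.4% passed there, 4247 higher and 5454 lower in head. The list passed in a smaller share than all genes in each comparison, narrowly so between heart and head, and the shares were not tested. Clk, the activator of per and tim, was lower in heart than in periphery (-2.17 ± 0.21, adjusted p = 5.41e-06) and lower in head than in periphery (-1.52 ± 0.31, adjusted p = 0.00028). Its partner cyc was higher in head than in periphery by 0.30 ± 0.06 (adjusted p = 0.000261). Atx2, whose protein promotes translation of PER, was lower in heart than in head (-1.68 ± 0.13, adjusted p = 7.96e-06) and higher in head than in periphery by 0.60 ± 0.09 (adjusted p = 1.07e-05).

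The fitted peaks of vri at week 5 lay near those of per and tim, and those of Clk and cry lay in the hours before ZT12. vri had 20.2, 44.9 and 53.4 FPKM as lowest, median and highest level in heart, 20.49, 50.5 and 228 FPKM in head, and 20.9, 50.3 and 151 FPKM in periphery. Its fitted peak was at 17.6 h in heart, 20.2 h in head and 20.9 h in periphery. cry peaked at 5.90 h in heart, 8.80 h in head and 9.30 h in periphery, where its levels ran between 57.6 and 169 FPKM. Clk peaked at 3.97 h in heart, 7.02 h in head and 6.87 h in periphery. None of these rhythms passed (adjusted p of 0.0726 or above).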

How the data were processed

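The deposited table gives FPKM, computed by the authors for each RefSeq transcript. The submitters' processing notes name HOMER, STAR 2.2.0c, CASAVA 1.8.2 and the build dm3, and the role of each was not given in the sources used here. The column of transcript lengths (in bases) was deposited by the authors and set each gene's step of FPKM per read. Low FPKM values fell on whole multiples of 1 read (100% within 0.1 reads), which gave each library's reads and its 95% exact Poisson limits. These cover counting error only.

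Trended empirical Bayes fits in limma 3.58.1 (R 4.3.3) used log2(FPKM + 1) of the genes that averaged 1 FPKM or more across a fit's libraries, with Benjamini-Hochberg adjustment over all genes and a threshold of 0.05. A pseudocount of 1 understates changes of low genes. Differences used pairs of the same age and ZT, and rhythms used a cosine and a sine of 24 h in moderated F tests. Peak errors are delta-method SEs, and those of peak differences treat the fits as independent. The fits were tested on simulated data. Ratios were tested by exact sign-flip permutation in python 3.11.15 with scipy 1.17.1. Members, gene lists and tests were chosen with earlier results of these data known. Named were per, tim, 6 genes of the clock list plus those singled out after their values were seen (nmo, Atx2), and the 5 genes most like per or tim in head and in periphery. Alternatives were pseudocounts of 0.1 and 5, no filter, a minimum of 5 FPKM, median-of-ratios rescaling, the mean over transcripts, robust variances, all libraries as labelled, no pairing and each ZT left out; limma-voom on recovered reads, 2 single libraries left out and the 4 heart ZTs alone were added after the data were seen. The labels give no batch.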

Additional observations from a re-analysis of the deposited data

Results flagged for a closer look

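In ALF heads at week 3, the ZT18 library stood far above the other 3 for both genes, at 51.8 FPKM of per and 151 FPKM of tim. It was the 1 library found far from the rest among 8 groups of 4 to 8 libraries searched for each gene. Chance flags about 1 in 20 groups, and per and tim vary together. The next highest ALF values were 18.0 FPKM of per and 33.6 FPKM of tim, and the libraries of a group differ in ZT.

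The 24 h rhythm of tim differed between heart and periphery, by an amplitude of 1.84 on the log2(FPKM + 1) scale (adjusted p = 0.0187). With the 4 ZTs of heart alone it was 1.84 too (adjusted p = 0.280).

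Among the libraries left out because ninaE contradicted their label, 5 labelled periphery had more per than the 26.9 FPKM that was the highest in the periphery libraries kept. At week 7 these were 47.4 FPKM in TRF at ZT06 and 51.4 FPKM in ALF at ZT00. At week 3 they were 56.1 FPKM in TRF at ZT00, 64.8 FPKM in TRF at ZT06 and 81.7 FPKM in ALF at ZT00.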

How the results depend on the processing

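For 78 results, 1154 values under 22 alternatives were computed, and 1083 kept their direction, where they have one, and their side of the threshold. Amplitudes of rhythms and of rhythm differences have no sign, so only their side of the threshold could change. The count of 1083 includes results that passed neither before nor after. It also includes values left unchanged because they did not use the ZT left out. The lower per in heart than in head and the higher per in head than in periphery passed under every alternative, at -3.22 to -2.0 and 1.37 to 1.90. The lower tim to per ratio in head than in periphery passed in each as well, at -1.61 to -1.44 without 1 ZT. Values below are on the log2(FPKM + 1) scale, and no value in this paragraph and the next passed except where stated. A pseudocount of 5 gave 1.75 for the amplitude of tim in ALF periphery at weeks 3 and 7 and -0.53 for per in heart minus periphery, and a minimum of 5 FPKM gave 1.94 for the same amplitude (all 3 passed). Median-of-ratios rescaling gave tim differences of -0.033 for TRF minus ALF in head at week 5, 0.023 for heart minus head and 0.53 for heart minus periphery. With all libraries as labelled, TRF minus ALF was -0.60 for per and -0.054 for tim in head at week 7, and 0.50 for per and 0.21 for tim in periphery at week 3. Week 7 minus week 3 in periphery was then -0.34 for per in TRF and -0.075 for tim in ALF. The ALF periphery amplitudes at weeks 3 and 7 were then 1.83 for per and 1.36 for tim (both passed). In that fit 7559 of 12342 genes were called, so these passes are not particular to per and tim. Without pairing, the block of the same age and ZT, TRF minus ALF of per in head at week 7 was -0.14, and no other call or direction changed.

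limma-voom on recovered reads gave 0.00051 for TRF minus ALF of per in periphery at week 5. It passed heart amplitudes of 1.17 for per and 1.73 for tim, and ZT18 minus ZT12 of tim at 2.29 in ALF periphery and -3.69 for TRF minus ALF. The 4 heart ZTs alone gave 1.84 for the tim rhythm difference between heart and periphery, and 1 FPKM added in the ratio of tim to per gave 0.59 between those tissues, neither of which passed. Without the head week 5 ALF ZT15 library, the log2 difference between head and periphery of the short to long ratio was 0.14, and that of TRF minus ALF in head of the tim to per ratio was 0.15.

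Leaving out 1 ZT at a time gave these ranges, and 11 values gained a pass while 9 lost one. Amplitudes of tim at week 5 were 1.77 to 2.41 in ALF heads, 1.68 to 2.23 in heads of both feedings, 1.47 to 2.07 in TRF periphery and 1.53 to 1.96 in periphery of both feedings, and that of per in periphery of both feedings 0.89 to 1.28. That of tim in ALF periphery at weeks 3 and 7 stayed at 1.94 where a ZT that shares only the spread was left out, and passed without ZT00, ZT03 or ZT21 (adjusted p of 0.0397 to 0.0495). Passes were also gained by tim amplitudes in ALF heads and heads of both feedings and by the tim rhythm difference of heart minus head without ZT15, by tim in TRF periphery without ZT06, by per in periphery of both feedings and its rhythm difference of heart minus periphery without ZT21, and by the levels of tim in heart minus head and per in heart minus periphery without ZT12. Passes were lost by tim in periphery of both feedings (without ZT09, ZT12 or ZT18), its rhythm difference of heart minus periphery (without ZT00 or ZT12) and the tim to per ratio of those tissues (each of 4 ZTs). The rhythm difference was 1.81 to 2.49 for tim in heart minus head, 1.68 to 2.0 for tim and 0.84 to 1.32 for per in heart minus periphery. TRF minus ALF in head was -0.57 to 0.41 for per and -0.44 to 0.61 for tim at week 3, while for per and tim at week 5 the ranges were -0.086 to 0.37 and -0.21 to 0.52, and for both at week 7, -0.69 to 0.72 and -0.77 to 1.36. In periphery it was -1.11 to 0.48 for per and -2.04 to 1.74 for tim at week 3, while for per and tim at week 5 the ranges were -0.26 to 0.074 and -0.36 to 0.045, and for tim at week 7, -2.05 to 1.35. tim was -1.53 to 0.35 in heart minus head, -0.72 to 0.50 in heart minus periphery, -0.030 to 0.47 in head minus periphery and -0.29 to 0.0041 in week 7 minus week 3 of TRF periphery, and per was -1.10 to -0.27 in heart minus periphery. For log2 ratios, tim to per was 0.51 to 0.82 in heart minus periphery, where 6 pairs could not reach the threshold beside the other p-values. It was -0.37 to 0.15, -0.22 to 0.037 and -0.0040 to 0.27 for TRF minus ALF in head, periphery and heart. The short to long ratio was -0.19 to 0.15 in head minus periphery, -0.018 to 0.072 for TRF minus ALF in periphery and -0.16 to 0.082 in heart. The causes of these changes were not tested. The rhythm of TRF periphery at weeks 3 and 7 could not be fitted. Precision is limited by few ZTs and single libraries, and read depth limits it in head week 3 TRF ZT12.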
